A study of Mus musculus with 2 samples.

Results

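The genes described here are 10 members of the matrix metalloproteinase (MMP) family and of the family of its tissue inhibitors (TIMPs), chosen by gene symbol from the 19059 genes of the count matrices. They were Mmp2, Mmp8, Mmp9, Mmp12, Mmp13, Mmp14, Mmp15, Timp1, Timp2 and Timp3. The cells came from brain tumors that grew in C57BL/6J mice after injection of mGSC, a mouse glioblastoma stem cell line with the genotype Trp53+/- and Nf1+/-, so both groups carried the same alleles and the same single line. One group received vehicle and the other Xevinapant, a SMAC mimetic that antagonizes the inhibitor of apoptosis proteins, daily for 7 days. Fixed cells were counted with gene probes, and each value below is a level in CPM, the unique molecular identifiers (UMIs) of a gene per 1000000 UMIs of a cell class in 1 sample.

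MMPs are zinc-dependent enzymes that cleave collagens, elastin, laminins and other components of the extracellular matrix. Most are secreted as inactive precursors, some are anchored in the cell membrane, and TIMPs bind the active enzymes and block them. In glioblastoma, the family is known for its part in invasion, in the remodelling of vessels and in the entry of myeloid cells, and its members are made by tumor cells as well as by the cells around them.

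The 8 matrices held 56943 barcodes and 1163463035 UMIs, with a median of 7452 to 14027 UMIs per barcode of a matrix, and 50669 cells remained after filters and doublet removal. Cells were assigned to classes by UMIs on marker genes, none of which was a member. This gave 41577 malignant cells, 1147 microglia, 791 macrophages, 488 fibroblasts, 332 monocytes, 263 neutrophils, 249 endothelial cells, 213 dendritic cells, 127 T cells and 80 mural cells. Within a group, 3 pairs of matrices (1 and 3 of vehicle, 1 and 2 of Xevinapant, 3 and 4 of Xevinapant) were nearly alike in cell class composition: their class counts differed by 1.21 to 1.63 times what sampling of cells gives (chi-square per degree of freedom), where the remaining pairs within a group differed by 7.98 to 45.8 times. Mean gene levels of their OPC-like malignant cells still differed by 1.71 to 3.90 times the squared sampling error, against 18.5 to 56.4 times for the remaining pairs. Pairs across the groups differed by 7.37 to 106 times in class counts and by 12.4 to 81.7 times in gene levels. The closest pairs across groups were thus nearer than the remaining pairs within a group. Each alike pair was joined, which left 3 vehicle and 2 Xevinapant samples. In the labels, pool and batch date differ with the treatment, and an effect of batch cannot be told apart from one of Xevinapant.

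The members fell into different cell classes (see the heat map of mean levels). Fibroblasts had the highest mean level of Mmp2, Mmp14, Timp1 and Timp3, macrophages of Mmp12, Mmp13 and Timp2, neutrophils of Mmp9, monocytes of Mmp8 and malignant cells of Mmp15. Levels were compared between cell classes for each gene and not between genes, because the counts come from probes and do not scale with transcript length.

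**Figure D1:**
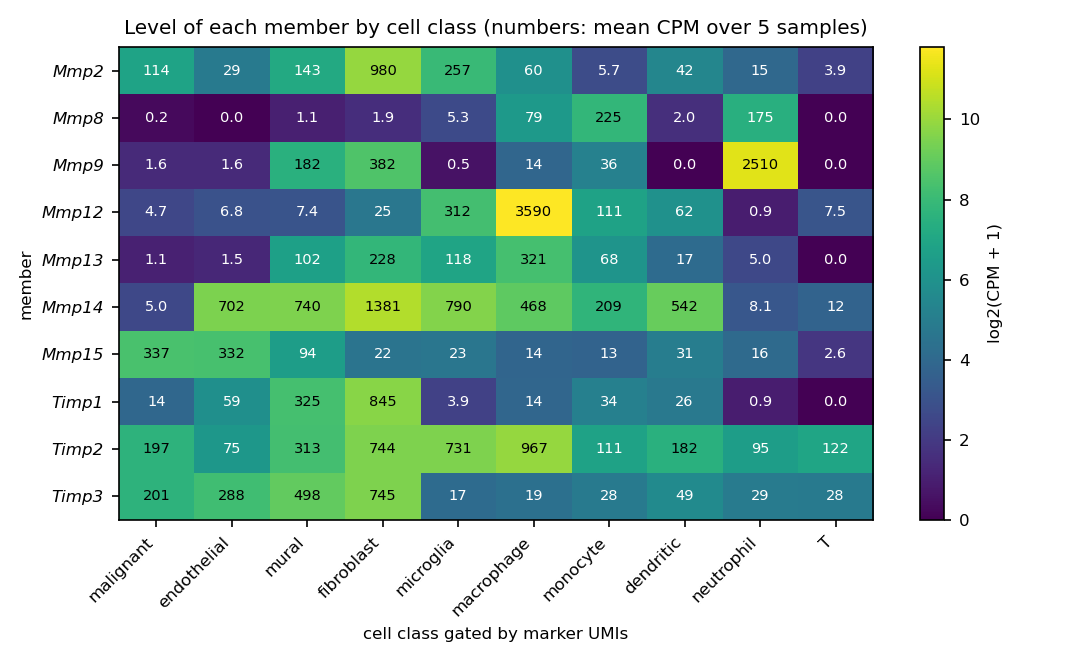
Mean level of each member (vertical axis) in each cell class (horizontal axis) over the 5 samples, in CPM as printed in the squares and as log2(CPM + 1) in colour. Mmp12 stood at 3590 CPM in macrophages and Mmp9 at 2510 CPM in neutrophils, while Mmp14 and Timp2 were spread over stromal and myeloid classes.

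Mmp12, Mmp13 and Mmp8 lie within 296 kb on the plus strand of chromosome 9 (GRCm38). Only members were placed, and other genes within this stretch were not read. In the GENCODE annotation, Mmp13 lies at chr9:7272514-7283331, Mmp12 at chr9:7344381-7369499 and Mmp8 at chr9:7558456-7568485. These genes were all detected in macrophages, so the bases before their RefSeq start sites are shown, from the RefSeq promoter windows of GRCm38.p6, plus strand, 250 bases each. For Mmp12 only the window of its second start is shown, and that of its first start (chr9:7344147-7344396) is not. RefSeq windows were matched for 8 of the 10 members, 9 windows in all, and the RefSeq start of Mmp8 lies upstream of the GENCODE start. Capitals mark the AP-1 motif TGAGTCA or its reverse complement TGACTCA, a site known to bind Fos and Jun factors, which was searched on both strands.
Mmp13, chr9:7272264-7272513: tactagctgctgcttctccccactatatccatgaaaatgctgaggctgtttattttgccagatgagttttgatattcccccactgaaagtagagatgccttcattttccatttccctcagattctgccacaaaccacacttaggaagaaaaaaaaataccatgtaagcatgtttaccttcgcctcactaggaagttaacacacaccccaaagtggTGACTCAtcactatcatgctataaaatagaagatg
Mmp12, second annotated start, chr9:7347124-7347373: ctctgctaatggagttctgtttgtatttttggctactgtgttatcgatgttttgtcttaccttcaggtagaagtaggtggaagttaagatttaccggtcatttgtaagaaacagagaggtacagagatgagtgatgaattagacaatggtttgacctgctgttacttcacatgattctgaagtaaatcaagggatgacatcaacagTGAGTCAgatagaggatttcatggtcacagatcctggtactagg
Mmp8, chr9:7558179-7558428: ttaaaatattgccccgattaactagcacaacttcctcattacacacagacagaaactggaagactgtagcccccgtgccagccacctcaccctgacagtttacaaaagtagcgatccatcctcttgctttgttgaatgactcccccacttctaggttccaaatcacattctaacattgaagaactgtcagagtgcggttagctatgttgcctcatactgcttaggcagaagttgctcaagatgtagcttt

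The AP-1 motif was in 2 of the 9 member windows, those of Mmp13 and of the second start of Mmp12, and in 4.46% of all 32851 windows of this length. Its first base lay at position -35 from the start site in Mmp13 and at -44 in Mmp12. The second window of Mmp12 lies inside a longer annotated transcript of the gene, and the window of its first start held no match. The PEA3 motif AGGAAG, searched on both strands, was in 6 of the 9 member windows and in 29.5% of all windows. The GC box GGGCGG was in 5 of 9 and in 32.7%, and TATAAA, searched on the plus strand, in 1 of 9, that of Mmp13, and in 7.59%. These are matches of letters, and no binding was measured.

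Mmp12, the macrophage elastase, was high in macrophages in each sample. Its level there was 3516, 4856 and 4040 CPM in the vehicle samples and 2621 and 2919 CPM in the Xevinapant samples, a mean of 3590 ± 894 CPM (SD, n = 5). Both Xevinapant values lay below all vehicle values. Microglia followed with 222, 118 and 322 CPM in vehicle and 698 and 202 CPM in Xevinapant tumors, below macrophages in 5 of 5 samples. Monocytes (mean 111 CPM) and dendritic cells (mean 61.6 CPM) came next, and in malignant cells the mean was 4.65 CPM.

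Within the macrophages, few cells carried most of the Mmp12 UMIs. Of 791 macrophages, 513 had none, while 52 cells (6.57%) with 100 UMIs or more held 78.0% of the class total and the highest cell held 1918. Those 52 cells had a median depth of 21580 UMIs, against 4761 UMIs in the 513, and the part of depth was not tested. Detection stood at 35.1% of macrophages (exact 95% binomial interval 31.8 to 38.6%, counting error only, median depth 6064 UMIs) against 4.13% of malignant cells, which were deeper at a median of 13114 UMIs. After each cell was thinned to 1000 UMIs, the shares were 26.7% and 0.392%. The highest Mmp13 cell of the same sample, with 373 Mmp13 UMIs, had the same total of 34735 UMIs as the highest Mmp12 cell.

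Macrophages were also split by whether they had a UMI of Arg1, which encodes arginase 1 and is 1 of the 10 macrophage marker genes used here (a split chosen after the values were seen). Mmp12 was higher in the cells with Arg1 in 5 of 5 samples, at 5521 ± 2077 CPM against 1371 ± 593 CPM (SD, n = 5 each). Mmp8 (122 against 22.6 CPM) and Mmp13 (405 against 224 CPM) were likewise higher with Arg1 in 5 of 5 samples. Mmp2, Mmp14 and Timp2 had the opposite order in 5 of 5 samples, with Timp2 at 790 ± 106 CPM with and 1209 ± 148 CPM without Arg1. Cells with Arg1 were deeper, with a median of 5323 to 9330 UMIs across samples against 2642.5 to 5128 UMIs, and the part of depth in these differences was not tested. Arg1 was found in 48 of 112, 17 of 40 and 16 of 60 macrophages of the vehicle samples and in 254 of 415 and 67 of 164 of the Xevinapant samples.

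**Figure D2:**
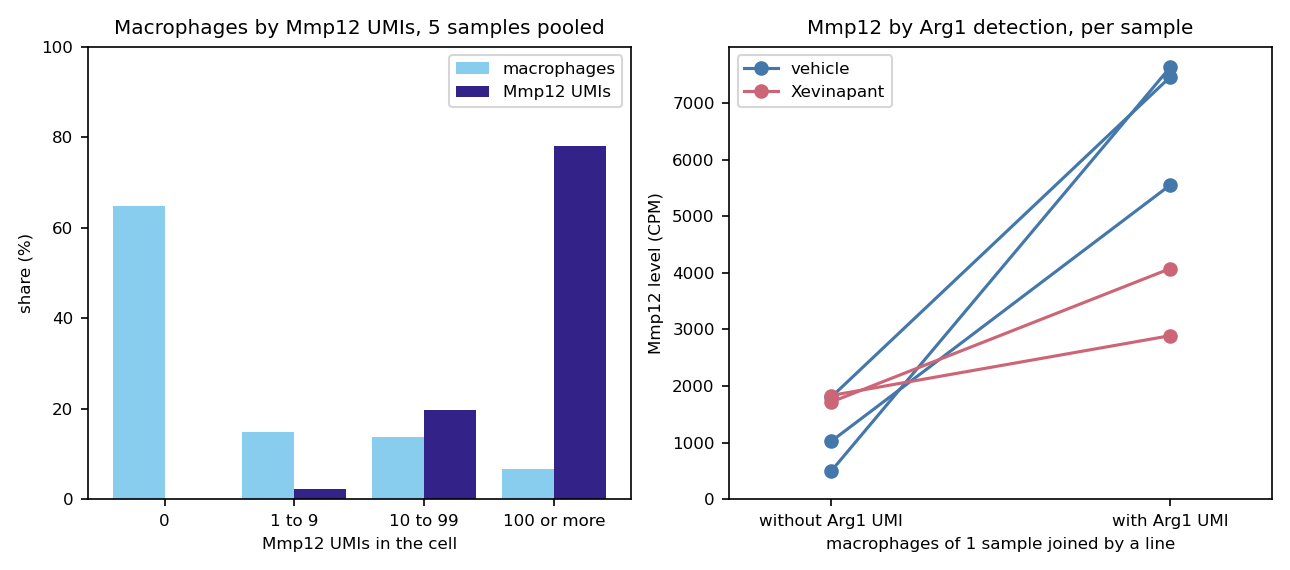
Left, macrophages of all samples grouped by their Mmp12 UMIs (horizontal axis), with the share of cells and the share of Mmp12 UMIs in percent; the 6.57% of cells with 100 or more held 78.0% of the UMIs. Right, Mmp12 level in CPM in macrophages without and with an Arg1 UMI, 1 line per sample; all 5 lines slope upward.

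Mmp13, collagenase 3 and the main interstitial collagenase of the mouse, had its highest mean in macrophages. The vehicle samples held 230, 547 and 278 CPM and the Xevinapant samples 312 and 237 CPM, so the groups overlapped. Microglia stood at 118 ± 31.8 CPM (SD, n = 5). The fibroblast mean of 228 CPM came from 1 sample: vehicle 1 and 3 had 1092 CPM, and the 4 others had 0 to 24.3 CPM. In that sample 538 of 553 Mmp13 UMIs were in 1 cell, which also held 2550 Col1a1, 34 Dcn and 64 Lum UMIs and no Cd68 or S100a8 UMI. Without this cell the level was 31.3 CPM. In mural cells of vehicle 2, all 51 Mmp13 UMIs likewise lay in 1 cell.

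Mmp8, the neutrophil collagenase, was found in monocytes, neutrophils and macrophages. Neutrophils held 99.8, 246 and 120 CPM in vehicle and 231 and 178 CPM in Xevinapant tumors, with overlap. The macrophage level was 79.1 ± 28.4 CPM (SD, n = 5), and macrophages, with more cells and a higher median depth (6064 against 1445 UMIs), held 51.3% of all Mmp8 UMIs against 6.03% in neutrophils. The monocyte mean of 225 CPM rested on vehicle 2, where 4 monocytes gave 729 CPM, and the range of the other samples was 40.0 to 184 CPM. Monocytes exceeded neutrophils in 2 of 5 samples. The 249 endothelial cells had no Mmp8 UMI, which allows a share of up to 1.20% of cells with a UMI.

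Mmp9, the gelatinase B stored in neutrophil granules, was led by neutrophils in 5 of 5 samples. They held 1347, 3810 and 1079 CPM in the vehicle and 4137 and 2175 CPM in the Xevinapant samples, and the groups overlapped. Vehicle 2 and 4 gave only 7 and 8 neutrophils. An Mmp9 UMI was present in 76.4% of neutrophils (median depth 1445 UMIs) and in 1.85% of malignant cells, and thinning to 1000 UMIs left 74.3% and 0.152%. Macrophages of the vehicle samples held 1 Mmp9 UMI in all, whereas those of the Xevinapant samples held 228 and 18, or 54.6 and 12 CPM. Vehicle monocytes had none and Xevinapant monocytes had 174 and 5.32 CPM. In both classes the Xevinapant samples also had more cells, with 415 and 164 macrophages against 112, 40 and 60 in vehicle. The neutrophil marker list in macrophages stood at 0.570 to 0.686% of its neutrophil level in vehicle and at 0.815 and 0.825% in Xevinapant samples. Leaving out macrophages with a UMI on S100a8, S100a9 or Csf3r gave 0, 0 and 6.39 CPM of Mmp9 in vehicle and 21.2 and 19.5 CPM in Xevinapant samples. In monocytes the same step left 83.5 and 0 CPM in Xevinapant samples. The part of neutrophil RNA in the Mmp9 values was not tested.

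Fibroblasts had the next highest mean of Mmp9, at 908, 344 and 154 CPM in vehicle and 363 and 140 CPM in Xevinapant samples. The 10% of fibroblasts with the most Mmp9 held 89.3% of its fibroblast UMIs, and 3 cells with 100 or more held 41.7%. The highest of them, with 430 Mmp9 UMIs, also had 2856 Col1a1 UMIs and no S100a8 or Cd68 UMI. With the highest cell of each sample left out, the values were 378, 32.4 and 90.6 CPM and 218 and 118 CPM. Leaving out the 27 fibroblasts with a UMI on S100a8, S100a9 or Csf3r gave 384, 344 and 70.9 CPM and 392 and 132 CPM. Mural cells ranged from 0 to 457 CPM, with a mean of 182 ± 199 CPM (SD, n = 5). Over all cells, fibroblasts held 30.2%, neutrophils 19.7% and malignant cells 18.2% of the Mmp9 UMIs. Without Xevinapant 1 and 2, neutrophils held 11.9% and malignant cells 30.1%. Malignant cells had the largest share in vehicle 2 (48.1%), vehicle 4 (37.8%) and Xevinapant 3 and 4 (43.0%), and neutrophils held 4.26, 9.14 and 2.36% in vehicle and 27.1 and 24.1% in Xevinapant samples.

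**Figure D3:**
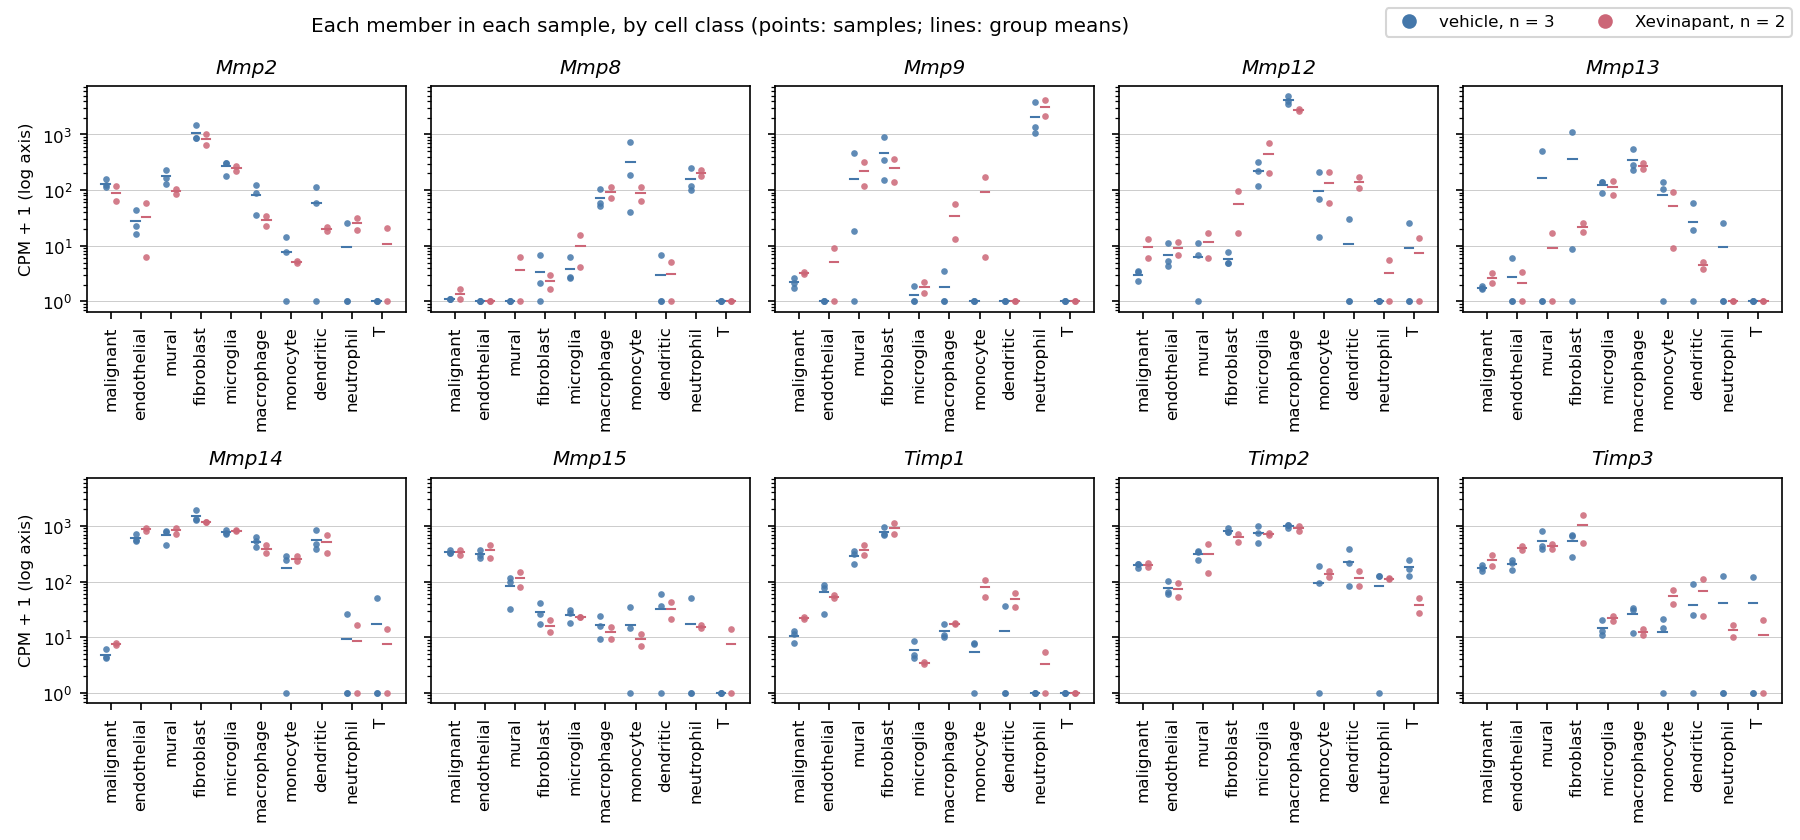
Level of each member in every sample, as CPM + 1 on a log axis, by cell class on the horizontal axis; points are samples (3 vehicle, 2 Xevinapant) and short lines group means. Mmp12 in macrophages and Mmp9 in neutrophils were above 1000 CPM in every sample, and Mmp13 in fibroblasts shows 1 vehicle sample at 1092 CPM far above the others.

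Mmp2, gelatinase A, which cleaves denatured and basement membrane collagen, was led by fibroblasts with 1467, 876 and 880 CPM in vehicle and 657 and 1019 CPM in Xevinapant tumors. The order from fibroblasts to microglia (257 CPM) to mural cells (143 CPM) to malignant cells (114 CPM) held in 5 of 5 samples for its first 2 steps and in 3 of 5 for the last. Malignant cells made up 82.1% of cells and held 89.4% of all Mmp2 UMIs, and fibroblasts held 5.33%. Of the 811195703 UMIs of all genes, 743543446 were in malignant cells. Their pooled Mmp2 level of 119 CPM lay slightly below the 122 CPM of all cells.

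Mmp14, the membrane-type enzyme that activates the precursor of MMP2 at the cell surface, was broad in the stroma and the myeloid classes. Fibroblasts held 1948, 1344 and 1252 CPM in vehicle and 1182 and 1177 CPM in Xevinapant samples. Microglia, mural and endothelial cells followed with means of 790 ± 60.2, 740 ± 181 and 702 ± 165 CPM (SD, n = 5 each), an order that held in 3 of 5 samples at each step. Malignant cells stood at 4.97 ± 1.67 CPM. Mmp14 was detected in 88.9% of fibroblasts and 82.6% of microglia, against 5.53% of malignant cells and 1.14% of neutrophils.

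Mmp15, another membrane-type MMP, was the only member whose highest mean was in malignant cells. Its level there was 321, 372 and 325 CPM in vehicle and 364 and 303 CPM in Xevinapant tumors, with overlap, and 97.7% of its UMIs lay in these cells. Endothelial cells had nearly the same mean of 332 ± 84.5 CPM against 337 ± 29.7 CPM (SD, n = 5 each), and malignant cells were the higher in 4 of 5 samples. Fibroblasts, microglia and macrophages had 22.3, 23.5 and 13.7 CPM.

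Among the inhibitors, Timp1, which binds the precursor of MMP9, was led by fibroblasts. They held 683, 724 and 958 CPM in vehicle and 1152 and 706 CPM in Xevinapant samples. Mural cells followed with 325 ± 89.6 CPM and endothelial cells with 58.9 ± 24.0 CPM, in that order in 5 of 5 samples. Malignant cells had a mean of only 14.4 CPM but held 51.9% of all Timp1 UMIs.

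Timp2, which takes part with MMP14 in the activation of the MMP2 precursor, was highest in macrophages in 5 of 5 samples, with 1046, 1046 and 929 CPM in vehicle and 802 and 1013 CPM in Xevinapant tumors. Fibroblasts (744 ± 143 CPM) and microglia (731 ± 185 CPM) could not be ordered, since fibroblasts were higher in 2 of 5 samples. Malignant cells had 197 ± 19.1 CPM.

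Timp3, the inhibitor that stays bound to the matrix and also blocks ADAM proteases, was spread over fibroblasts, mural, endothelial and malignant cells. Fibroblast levels were 280, 684 and 661 CPM in vehicle and 499 and 1598 CPM in Xevinapant samples, a range wider than that of any other class above 100 CPM. Mural cells (498 ± 181 CPM) came below fibroblasts in 3 of 5 samples. Macrophages and microglia had 19.4 and 16.7 CPM.

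**Figure D4:**
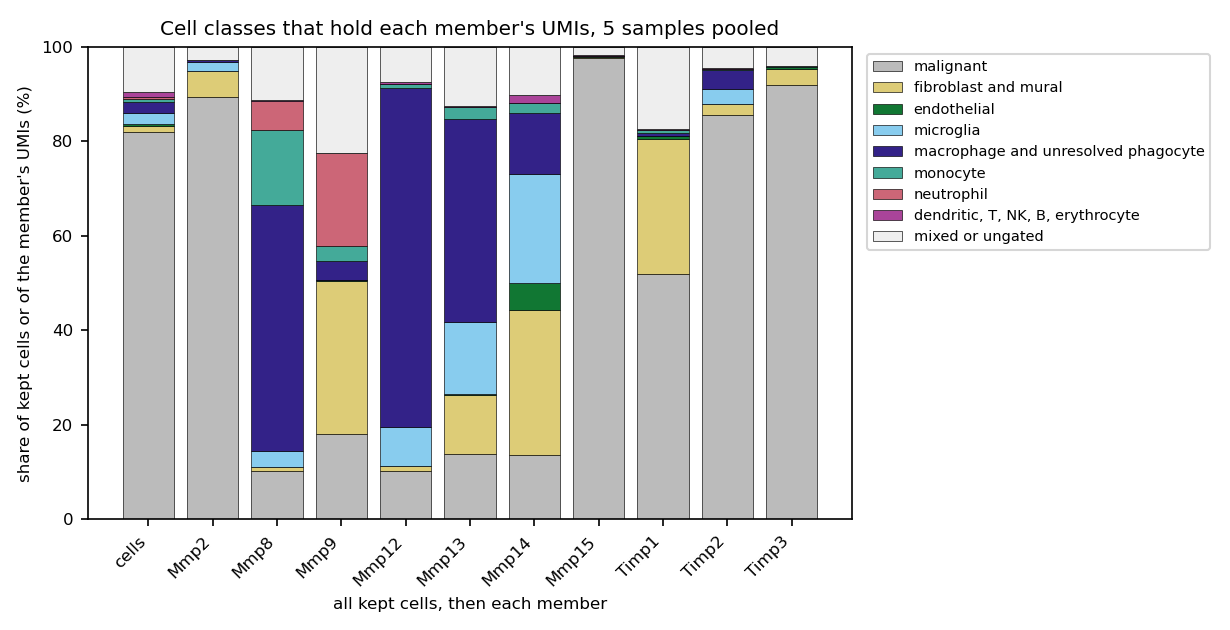
Share of kept cells (first bar) and of each member's UMIs (other bars) in each cell class, in percent, 5 samples pooled. The first bar counts cells, and of the 811195703 UMIs of all genes 743543446 were in malignant cells. Malignant cells were 82.1% of cells and held 97.7% of Mmp15 but 10.3% of Mmp12 UMIs, of which macrophages held 66.7%; phagocytes that could not be resolved are drawn with the macrophages, and mural cells with fibroblasts.

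Malignant cells were divided by markers into 5333 cells like astrocytes (AC-like), 4142 mesenchymal and hypoxic (MES-like) and 803 like neural progenitors (NPC-like). The remaining 31299 reached none of these states and were called OPC-like, after oligodendrocyte precursors, without a marker list of their own. Their median depth was 11216 UMIs, against 15489 in AC-like, 22224 in MES-like and 23586 in NPC-like cells. Mmp2, Mmp14, Mmp15 and the TIMPs had a leading state that held in 5 of 5 samples, while Mmp8, Mmp9, Mmp12 and Mmp13 had none. Timp3 was 455 ± 61.4 CPM in AC-like, 259 ± 77.5 in MES-like, 138 ± 41.7 in OPC-like and 98.9 ± 21.9 in NPC-like cells (SD, n = 5 each), in this order in 5 of 5 samples. Timp2 was also highest in AC-like cells (330 CPM) in 5 of 5 samples, as were Timp1 (27.1 CPM) and Mmp14 (10.2 CPM). Mmp15 was highest in OPC-like cells (383 CPM) in 5 of 5 samples, and Mmp2 in OPC-like cells (126 CPM) in 5 of 5. AC-like cells, the leading state of Timp1, Timp2 and Timp3, had less Mmp2 than the OPC-like state by 0.84 ± 0.14 on the log2 scale (SD, n = 5).

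Genes other than the 10 members whose pattern over 10 classes was most like a member's were found by the Pearson correlation of log2(CPM + 1), as a description over classes that share libraries. For Mmp12 they were Trem2 (r = 0.95), a lipid receptor of macrophages, Folr2 (0.95) and Fcna (0.94). Mmp9 was followed by Inhba (0.96), Ier3 (0.86) and Sgms2 (0.86), Mmp8 by Rhov, Cebpb and Cstb (0.96 each), and Mmp2 by Vkorc1 (0.93), Slit1 (0.92) and Ctsf (0.92). The nearest to Mmp13 were Guca1a, Itgb5 and Mmp19, itself a metalloproteinase. The class means behind the Mmp13 pattern included those of fibroblasts and mural cells, each resting mostly on 1 cell. For Mmp8, the monocyte mean rested on vehicle 2 with 4 monocytes.

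Whether Xevinapant changed the members within a class was tested by edgeR on counts summed per sample and class, against all genes of the class. In malignant cells, microglia, macrophages, endothelial cells and fibroblasts, 0 of 41 member tests passed an adjusted p of 0.05, against 0.0613% of the 50554 tests of all genes. At an unadjusted p under 0.05 there were 14 of 41, and over all genes 9.11%. The groups did not overlap in 8 tests with Xevinapant higher and in 4 with Xevinapant lower, against 14.0% and 11.5% of all genes. The 10 classes and sums tested were all cells, malignant cells, their OPC-like, AC-like, MES-like and NPC-like states, microglia, macrophages, endothelial cells and fibroblasts. They are nested: all cells include every class, and malignant cells include the states. The same gene and RNA are therefore counted in more than 1 of them, and their tests are not separate. Over these 10, DESeq2 called 7 of 99 member tests, against 1.03% of all genes. They were Mmp12 in malignant cells (DESeq2 adjusted p = 0.0024), OPC-like cells (0.026) and macrophages (0.043), Timp1 in all cells (0.0072), malignant cells (0.01) and AC-like cells (0.0049), and Timp3 in endothelial cells (0.043). Since 3 samples were set against 2, there are 10 assignments of samples to groups. An exact permutation p of 1 value, taken as 2 times its one-sided share, cannot go below 0.2. The study's text describes tumors of separate mice, as many as there are matrices in a group, while the labels tie no matrix to a mouse, so the joined samples depart from that description and the spread between samples may be partly technical. With each matrix counted as 1 mouse, edgeR called 7 member tests, against 3.1% of all genes: Timp1 in all cells, malignant, AC-like and MES-like cells, Mmp12 in malignant cells, Timp3 in MES-like cells and Mmp2 in macrophages.

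In macrophages, 2 of 9 members tested had both Xevinapant samples below all vehicle samples, against 10.4% of all genes, and none of the 9 had them above, against 16.3% of all genes. Mmp9 did not pass the filter on low counts there, with 0, 0 and 2.53 CPM in vehicle and 54.6 and 12 CPM in Xevinapant macrophages. Vehicle macrophages held 1 Mmp9 UMI in all, so the gene could be tested only through the Xevinapant samples. Without that filter edgeR called it, as 1 of 257 genes called among 14920 in macrophages, and over 5 alternatives its adjusted p was 3.1e-13 to 0.40. Mmp2 was at 88, 123 and 35.4 CPM in vehicle and 22.0 and 33.4 CPM in Xevinapant macrophages, and the nearest values of the groups were 35.4 and 33.4 CPM. Its log2 fold change was -1.66 (SE 0.36, edgeR adjusted p = 0.17). Mmp12, with the values given above, had a log2 fold change of -0.61 (SE 0.18, adjusted p = 0.26). The macrophage marker list went the other way, at 76.8 to 103% of its class mean in vehicle and at 109 and 127% in Xevinapant samples, as did the monocyte list, at 3.48 to 6.49% and at 7.37 and 10.6% of its own class level, and their part was not tested. Fibroblast markers were at 0.0425 to 0.235% of their own class level. In macrophages with an Arg1 UMI, Mmp12 was at 5550, 7461 and 7633 CPM in vehicle and at 2888 and 4074 CPM in Xevinapant samples. In those without, it was at 1019, 1800 and 492 CPM against 1830 and 1714 CPM, with overlap.

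In endothelial cells, 2 of 6 members tested were higher with Xevinapant without overlap, against 12.6% of all genes. Timp3 stood at 244, 162 and 218 CPM in vehicle and at 373 and 441 CPM in Xevinapant endothelial cells, a log2 fold change of 1.0 (SE 0.23, adjusted p = 0.11). Mmp14 stood at 550, 529 and 704 CPM against 823 and 905 CPM, a log2 fold change of 0.56 (SE 0.21, adjusted p = 0.37). For both genes all Xevinapant values exceeded all vehicle values. Each sample had 25 to 95 endothelial cells, and their mural markers were at 5.27 to 6.89% in vehicle and at 5.41 and 7.89% of the mural level in Xevinapant samples.

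In fibroblasts, Mmp14 and Timp2 were lower without overlap, against 10.7% of all genes, and Mmp12 higher, against 8.66%. Mmp14 had a log2 fold change of -0.34 (SE 0.30, adjusted p = 0.92), and its nearest values were 1252 and 1182 CPM. Timp2, at 908, 784 and 788 CPM in vehicle and 518 and 721 CPM in Xevinapant fibroblasts, had a log2 fold change of -0.39 (SE 0.27, adjusted p = 0.89). Mmp12 was at 3.95, 4.00 and 6.60 CPM in vehicle and at 94.4 and 16 CPM in Xevinapant fibroblasts, a log2 fold change of 3.47 (SE 0.84, adjusted p = 0.63). The vehicle fibroblasts held 2, 1 and 6 Mmp12 UMIs, so the gene passed the filter on low counts only through the Xevinapant samples, and its place among the tests without overlap shows nothing by itself. In the sample with 94.4 CPM, 247 of 278 Mmp12 UMIs came from 1 cell of 64340 UMIs. That cell also carried 5130 Col1a1 and 153 Lgals3 UMIs. Of the phagocyte markers Cd68 and C1qa it held 55 and 3 UMIs. With the highest cell of each sample left out, the values were 2.05, 0 and 5.56 CPM and 10.8 and 7.08 CPM.

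**Figure D5:**
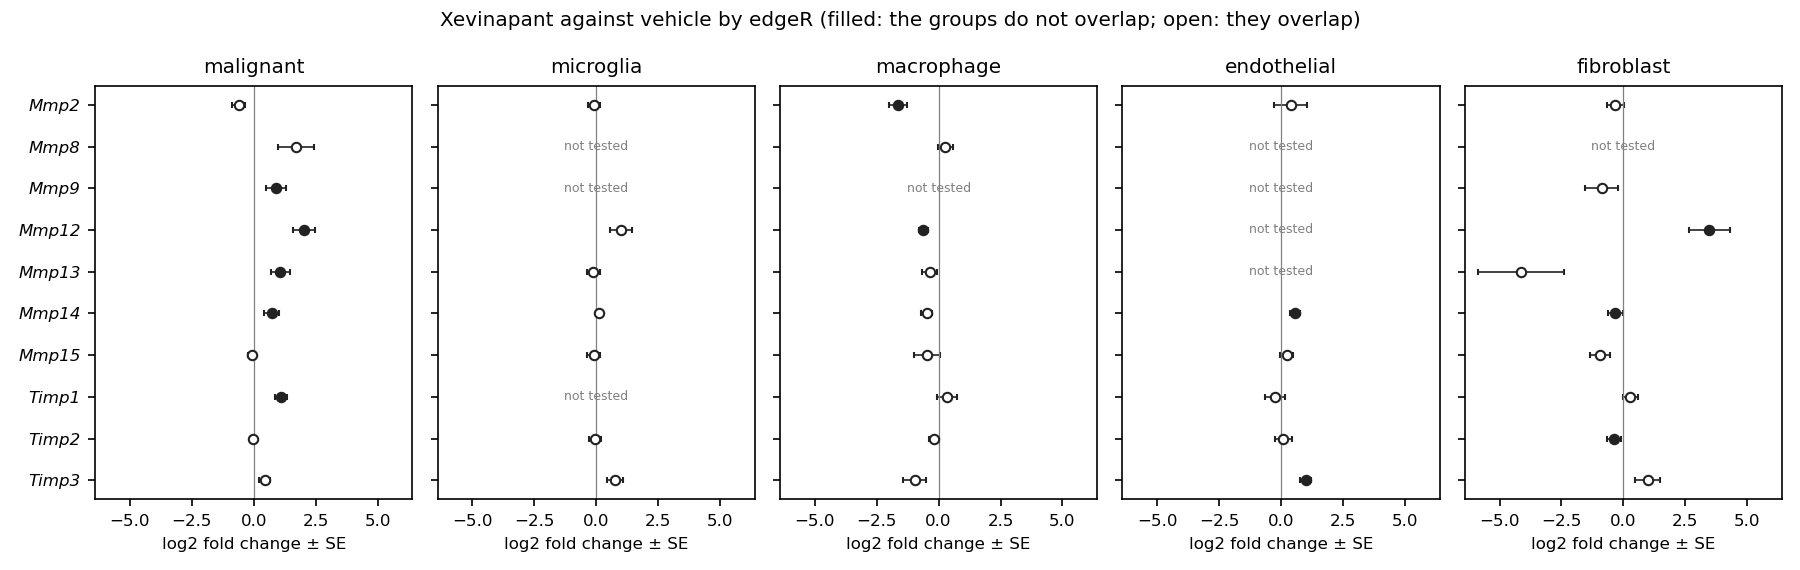
Log2 fold change of Xevinapant against vehicle with its standard error for each member in 5 cell classes, by edgeR; filled points mark tests in which the groups did not overlap. None passed the adjusted threshold, and 8 filled points lie above and 4 below 0.

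In malignant cells, 5 of 10 members were higher with Xevinapant without overlap, against 18.8% of all genes, and none lower, against 11.3%. Timp1 held 11.8, 6.79 and 10.6 CPM in vehicle and 22.2 and 20.6 CPM in Xevinapant malignant cells, a log2 fold change of 1.09 (SE 0.25, adjusted p = 0.44). Mmp12 held 2.47, 1.32 and 2.32 CPM against 12.1 and 5.0 CPM, a log2 fold change of 2.03 (SE 0.45, adjusted p = 0.44). The others, Mmp9, Mmp13 and Mmp14, were below 7 CPM in every sample. Mmp12, Mmp9, Mmp13 and Mmp14 were under the level set for naming and were singled out after their values were seen. Over all samples, 3 of 41577 malignant cells held 27.4% of the malignant Mmp12 UMIs. The highest, a cell of 90966 UMIs in Xevinapant 1 and 2, had 421 Mmp12 UMIs. It also had 203 Cd68 and 150 C1qa UMIs beside 59 Olig2 and 28 Sox10 UMIs.

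Markers of other cells moved with these values. The 8 mononuclear phagocyte genes reached 0.272 to 0.376% of their macrophage level in vehicle malignant cells and 0.583 and 0.525% in Xevinapant malignant cells, with none of the 8 at 0. A UMI on any of them was found in 35.1, 31.3 and 42.8% of malignant cells in vehicle and in 51.0 and 50.3% in Xevinapant samples. Without these cells Mmp12 was at 2.06, 1.24 and 1.16 CPM against 6.05 and 2.73 CPM, and its log2 fold change was 1.51. The log2 fold change of Timp1 was 0.99 there. The 8 fibroblast genes in malignant cells were at 0.104 to 0.202% in vehicle and at 0.230 and 0.169% of the fibroblast level in Xevinapant samples.

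By state, the members higher with Xevinapant without overlap were 3 of 9 tested in AC-like cells (14.6% of all genes), 5 of 9 in OPC-like (16.6%), 4 of 10 in MES-like (19.0%) and 1 of 5 in NPC-like cells (12.7%). Timp1 was among them in each of the 4 states. In AC-like cells it was at 21.9, 14.8 and 22.2 CPM in vehicle and 40.2 and 36.5 CPM in Xevinapant samples, a log2 fold change of 0.93 (SE 0.19, adjusted p = 0.32). The log2 fold change was 0.97 in OPC-like, 1.12 in MES-like and 1.02 in NPC-like cells, with adjusted p from 0.26 to 0.78. Timp3 in MES-like cells was at 230, 198 and 211 CPM against 390 and 268 CPM (log2 fold change 0.62, SE 0.18, adjusted p = 0.25), without overlap. Mmp2 in AC-like cells was lower, at 78.8, 72.4 and 88 CPM against 41.7 and 67.8 CPM, with a log2 fold change of -0.55 (SE 0.20, adjusted p = 0.46, against 14.5% of all genes lower without overlap). Timp2 in NPC-like cells was lower by a log2 fold change of -0.30 (SE 0.16, adjusted p = 0.76), without overlap and against 10.5% of all genes.

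Summed over all cells, 2 of 10 members, Timp1 and Mmp14, were higher in Xevinapant samples without overlap, no larger a share than the 23.5% of all genes. Timp1 held 16, 11 and 16.5 CPM in vehicle and 66.5 and 27.3 CPM in Xevinapant tumors (log2 fold change 1.64, SE 0.37, adjusted p = 0.25). Mmp14 held 27.9, 19.5 and 23.1 CPM against 74.2 and 31.8 CPM (log2 fold change 1.12, SE 0.34, adjusted p = 0.25). In such sums, more cells of a class and more RNA per cell cannot be told apart. Macrophages made up 1.28, 0.596 and 0.477% of vehicle and 4.87 and 1.16% of Xevinapant cells, and fibroblasts 0.596, 0.268 and 0.716% against 2.73 and 0.678%.

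Classes with at least 4 cells in every sample were tested as well, an addition made after seeing the data. There edgeR called 0 of the members, against 0.0122% of all genes, and DESeq2 also called 0, against 0.0096%. At an unadjusted edgeR p under 0.05 there were 2 member tests. Over all genes there were 67 of 890 in neutrophils, 212 of 4267 in monocytes and 276 of 4918 in dendritic cells. Mural cells had 198 of 5366 and T cells 19 of 978. Mmp9 in neutrophils had a log2 fold change of 0.78 (SE 0.44, adjusted p = 0.71). Mmp12 in dendritic cells was at 0, 0 and 29.7 CPM in vehicle and 169 and 109 CPM in Xevinapant samples, without overlap (10.8% of all genes), from 84 UMIs in all. With 0, 0 and 5 UMIs in vehicle it passed the filter only through the Xevinapant samples, and nothing is read from that count. Mmp2 in mural cells was at 163, 233 and 128 CPM against 85.2 and 103 CPM, also without overlap (7.92% of all genes).

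The pathway around the members was read from 5 lists of 86 genes, of which 85 were in the panel. None of 648 tests over the 10 classes and sums listed above was called by edgeR. At an unadjusted edgeR p under 0.05, 122 were higher and 35 lower with Xevinapant, against 10.4% of all genes in either direction. Since all cells, malignant cells and their states are nested, the same gene is counted more than once among these tests. In the list of activators, partners and inhibitors (24 genes), 9 of 22 tested in malignant cells were higher at an unadjusted p under 0.05 and 0 lower, with a median log2 fold change of 0.44 against 0.01 over all genes, of which 1609 of 14578 were under that p in either direction. The phagocyte genes given above moved with these values, and their part was not tested. Genes of the list differed in where they were high. Plau was at 6.23 CPM in malignant cells and at 1782 CPM in macrophages, and Lrp1 at 440 and 1395 CPM. Serpine2 was at 719 CPM in malignant cells and at 66.1 CPM in macrophages, and Plat at 101 and 9.43 CPM. In macrophages, 1 of 11 was higher and 2 lower, with a median of -0.44, against 10.5% of all genes in either direction. Of the 16 other MMPs and Timp4 in the panel, 1 of 11 tested in malignant cells was higher at that level.

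The class levels of these genes lay beside those of the members. Plau, the urokinase that generates plasmin, was highest in macrophages (1782 ± 550 CPM, SD, n = 5), as was Adam8 (1410 ± 239 CPM). Mmp3 (226 CPM), Mmp11 (147 CPM) and Mmp23 (341 CPM) were highest in fibroblasts. Mmp25 was highest in neutrophils (84.7 ± 95.1 CPM) with Lcn2 (944 ± 364 CPM), whose protein binds MMP9. Of the substrates, Col1a1 was highest in fibroblasts. Col4a1 had nearly the same mean in endothelial cells (10783 ± 1122 CPM, SD, n = 5) and mural cells (10517 CPM). Acan, Bcan, Ncan and Vcan had their highest means in malignant cells, Vcan at 428 ± 61.5 CPM against 360 CPM in fibroblasts.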

How the data were processed

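UMI counts of 19059 genes were deposited by the authors as 4 matrices per treatment, unnormalized; per the labels reads were mapped to mm10 with Cell Ranger 3.0 and imported into Seurat 4.0, while the file headers name Cell Ranger 7.1.0. The deposited matrices had not passed the study's cell filters. One label names total RNA and the other polyA RNA. The Xevinapant matrices bear file names with the word Vehicle; groups were taken from the labels.

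Cells with 200 genes or more, at most 10% mitochondrial UMIs and a complexity of 0.8 or more were kept. Scrublet scores (scanpy 1.11.5) removed 3905 barcodes at 0.8% per 1000 barcodes. A class needed UMIs on at least 3 of its marker genes and 0.25 of the level of core cells. Phagocytes became microglia with 1 marker. Malignant cells that reached no other state were counted as OPC-like. Cells with a second lineage above 0.5 of the first were left out as mixed. Counts of alike matrices were summed. Full barcodes were shared only by the 4 same-numbered pairs of matrices across groups, 32 to 188 in a pair.

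Counts per sample and class (at least 10 cells in every sample) were tested by edgeR 4.0.16 in R 4.3.3, with TMM, its filter on low counts, the quasi-likelihood test and Benjamini-Hochberg adjustment over all genes of the class. Members were named where they passed 0.05, or where groups did not overlap and the mean log2 CPM was 3 or more. The 3 genes most like a member had a class level of at least 20 CPM. Levels are means and SDs over 5 samples. Alternatives were each matrix as 1 mouse, a block on the matrix number, DESeq2 1.42.0, no TMM, no filter, other gates, no doublet removal, thinned cells and each sample left out. The script was tested on simulated counts. Members, lists and tests were chosen with earlier results of these data known. Intervals cover counting error only. Software included Python 3.11.15, numpy 2.4.6, pandas 2.3.3, scipy 1.17.1 and matplotlib 3.10.9.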

Additional observations from a re-analysis of the deposited data

Results flagged for a closer look

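Mmp12 and Mmp14 had opposite directions in a pair of cell classes, with every sample of a group on the same side. Mmp12 was higher with Xevinapant in fibroblasts and lower in macrophages. Its log2 ratio of fibroblasts to macrophages differed by 3.61 between the groups (exact permutation p = 0.2). This p is 2 times the one-sided share, and 3 against 2 samples can give none smaller in this way. The vehicle fibroblasts held 2, 1 and 6 Mmp12 UMIs, near the floor, and the gene was tested there only through the Xevinapant samples, so its value is a description. The size rested on single cells: with the highest fibroblast of each sample left out, Mmp12 was at 2.05, 0 and 5.56 CPM in vehicle and at 10.8 and 7.08 CPM in Xevinapant samples, against 94.4 and 16 CPM with them. Mmp14 was higher with Xevinapant in endothelial cells and lower in fibroblasts. The log2 ratio of endothelial cells to fibroblasts differed by 0.88 (exact permutation p = 0.2, taken in the same way). Neither difference passed a threshold, and these pairs of classes were picked because the directions were opposite.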

How the results depend on the processing

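The count of member tests called by edgeR, 0 of 84 over 10 classes and sums, became 7 when each matrix counted as 1 mouse (3.1% of all genes), 4 with the replicate block on the matrix number (1.08%), 7 by DESeq2 (1.03%), 11 with no filter on low counts (1.05%; among them Mmp9 in macrophages and Mmp12 in fibroblasts, near 0 in vehicle, and Mmp13 in fibroblasts, mostly from 1 cell) and 1 with 1 more marker gene in the gate (0.0369%). With single samples left out it was 0 to 5, the 5 (0.453% of all genes) arising without Xevinapant 3 and 4, a fit with a lone treated sample assumed to vary like the vehicle samples (Mmp12, Mmp14 and Timp1 in all cells, Mmp9 in macrophages, Mmp12 in fibroblasts, the last 2 passing the filter only through that sample). These 10 classes and sums are the nested ones listed with the tests above. The count stayed at 0 without TMM, without doublet removal, with thinned cells and with 1 fewer marker gene. In the classes with at least 4 cells it was 0, against 4 with no filter (0.237%; Mmp9 and Timp1 in monocytes and Mmp12 in dendritic cells, at or near 0 in vehicle, and Mmp13 in mural cells, mostly from 1 cell) and 0 to 2 with single samples left out (2 without vehicle 1 and 3, 0.264% of all genes, and 1 without Xevinapant 3 and 4, 0.182%, again with a lone treated sample). The matrix numbers did not pair the samples: deviations of same-numbered matrices correlated at 0.32, -0.27, -0.30 and 0.11, and 1 of 8 matrices were closest to their own number. None of the 271 values for the 19 named differences changed direction. Most of these differences were named because their groups did not overlap, which leaves little room for a reversal. Nothing is read from the constant direction. The leading class changed for Mmp8 (to neutrophils), Mmp13 (to fibroblasts without vehicle 2) and Mmp15 (to endothelial cells without vehicle 1 and 3, vehicle 4 or Xevinapant 3 and 4). Of 10 leading classes by detection, 8 held after thinning. Cell number limits the reading in neutrophils, with 7 and 8 cells in 2 vehicle samples, and in monocytes and T cells, with 4 each in vehicle 2.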

Other observations

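Cells that carried UMIs of a pair of lineages were left out of the classes, and the members were found there too. The 453 mixed cells held 11.7% of all Mmp9 UMIs, 10.5% of Mmp13, 7.82% of Mmp14 and 2.76% of Mmp12. In vehicle 1 and 3 they held 47.6% of the Mmp9 and 27.5% of the Mmp13 UMIs, and without that sample the shares were 3.04 and 4.37%. Without Xevinapant 1 and 2 the Mmp9 share was 21.8%, and without vehicle 4 the Mmp12 share was 1.61%. The 4385 cells that passed no gate, with a median of 2080 UMIs, held 13.3% of Timp1 and 8.11% of Mmp8 UMIs, the latter 2.62% without Xevinapant 1 and 2.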
